A study of Mus musculus with 6 samples.

Results

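Genes of cholesterol synthesis and of its control were followed in mouse medulloblastoma cells exposed to a bromodomain inhibitor or to a Smoothened inhibitor. The 8 genes were Hmgcs1, Idi1, Fdps, Sqle, Lss and Dhcr7, which encode enzymes of the pathway, and Insig1 and Srebf2, which encode regulators of it. They were taken by symbol from the intensity table, of 30869 symbols in all. The table held 15 probes for 7 of them, of which 12 probes for the same 7 genes were above background on enough arrays to be tested, among 12052 genes tested. No probe of Hmgcs1 was analysed here. The gene set was named for synthesis and uptake, but none of its members encodes a lipoprotein receptor, so uptake genes were described from a separate list.

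All 6 arrays carried total RNA of SmoWT-MB, described in the labels as a Ptch-deficient mouse medulloblastoma cell line. Treatment lasted 6 h, with JQ1, labelled a BETi (an inhibitor of the BET bromodomain proteins), with GDC-0449, labelled a SMOi (an inhibitor of Smoothened), or with DMSO, the solvent. Each of the 3 groups had 2 arrays. No concentrations are given in the labels. Nor do they state that both arrays of a group had cultures of their own, so a p-value reflects the spread of these arrays alone, possibly technical. All groups share the Ptch deficiency, and the results concern 1 cell line.

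Cholesterol is built from acetyl-CoA through mevalonate, farnesyl diphosphate and squalene. When membranes of the endoplasmic reticulum are poor in sterol, the transcription factor SREBP-2, the product of Srebf2, is released and raises transcription of most enzymes of the pathway. Insig1 encodes a membrane protein that holds SREBP-2 back when sterol is plentiful and is itself a target of SREBP-2. Sterols also bind Smoothened, the hedgehog signal transducer that GDC-0449 blocks.

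Promoter windows from RefSeq were available for 6 of the 8 genes (GRCm38.p6, the 250 bases before an annotated transcription start, with several starts for some genes, so that the window of Lss and some of Dhcr7 reach inside the gene). The windows of Insig1, Srebf2 and Idi1 are shown because these 3 genes were called higher with JQ1. Capitals mark matches on either strand to CCAAT (or ATTGG), the letters bound by NF-Y, and to GGGCGG (or CCGCCC), the letters bound by Sp1; both factors are known partners of SREBP at sterol-responsive promoters.
Insig1 (chr5:28071162-28071411, plus strand): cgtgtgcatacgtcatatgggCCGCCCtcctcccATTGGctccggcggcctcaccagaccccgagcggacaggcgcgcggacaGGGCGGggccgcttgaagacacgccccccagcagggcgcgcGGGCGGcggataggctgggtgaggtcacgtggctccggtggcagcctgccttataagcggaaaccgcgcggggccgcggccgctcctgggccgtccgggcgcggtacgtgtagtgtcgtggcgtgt
Srebf2 (chr15:82147019-82147268, plus strand): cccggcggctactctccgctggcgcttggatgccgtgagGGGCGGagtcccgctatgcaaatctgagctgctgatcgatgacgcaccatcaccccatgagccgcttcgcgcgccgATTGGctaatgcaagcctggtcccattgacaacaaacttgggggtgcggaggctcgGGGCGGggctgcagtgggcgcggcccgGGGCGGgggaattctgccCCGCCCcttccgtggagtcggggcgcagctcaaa
Idi1 (chr13:8885356-8885605, plus strand): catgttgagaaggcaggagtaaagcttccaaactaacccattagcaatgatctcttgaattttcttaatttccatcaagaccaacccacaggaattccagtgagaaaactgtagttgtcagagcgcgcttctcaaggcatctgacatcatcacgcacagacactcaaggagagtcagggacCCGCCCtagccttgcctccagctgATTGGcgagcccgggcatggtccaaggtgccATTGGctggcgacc
Each of the 3 windows held both kinds of letters, with no overlap between matches: 1 CCAAT and 3 GGGCGG in Insig1, 1 and 4 in Srebf2, and 2 and 1 in Idi1. The windows of Hmgcs1 and Lss held both as well, and of 3 windows of Dhcr7 only 1 did, at a start inside the gene. Of all 32851 RefSeq windows of this length, 33.85% held CCAAT and 32.74% held GGGCGG. The share of all windows holding both was not counted, so holding both has no such share beside it. TCACNCCAC, a form of the sterol regulatory element searched on both strands, was in none of these 3 windows, in 1.05% of all windows and, among the members, only in that of Hmgcs1. A match describes the letters of the window and shows no binding.

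The arrays had between 15125 and 16466 of 45281 probes above background, and within every group r between arrays was 0.996 across genes, which are not independent replicates. Mean unnormalized signal was 303 and 313 with JQ1, 305 and 306 with GDC-0449, and 408 and 344 with DMSO. Quantile normalization removed that difference, so every change below is relative to the other genes. Hexim1, a known marker of BET inhibition, rose with JQ1 (log2 change 2.83, limma adjusted p = 7.45e-07). Ptch1, a hedgehog target, had log2 changes of -1.71 with JQ1 and -1.84 with GDC-0449 (limma adjusted p = 9.93e-06 and 0.000125). Where its probe lies with respect to the Ptch deficiency is not given in the sources used here. Of 8 markers of medulloblastoma and of granule neuron precursors, the cells of origin of this tumour type, 7 were tested and Atoh1 was not. With JQ1 3 were higher and 3 lower, beside 28.4% and 30.0% of all genes. With GDC-0449 5 were higher and 0 lower, beside 8.64% and 9.60% of all genes. The summed intensity of the 7 was 5820.0 and 5972.7 with JQ1, 8248.5 and 8538.9 with GDC-0449, and 5294.8 and 5091.8 with DMSO. Of 28 markers of glia, microglia, endothelium and fibroblasts, 8 were tested, and Gfap, Aqp4, Olig2, Sox10, Aif1, Pecam1 and Col1a1 were not. The summed intensity of the 8 was 2228.4 and 2281.2 with JQ1, 4793.0 and 4636.9 with GDC-0449, and 4658.6 and 5342.4 with DMSO. With JQ1, 5 of these 8 fell and 1 rose, and with GDC-0449 1 fell and 0 rose. The part of either marker list in the values below was not tested. In these bulk samples fewer cells of a type and less RNA per cell cannot be told apart.

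JQ1 against DMSO asks how these genes respond to BET inhibition. Insig1, Srebf2 and Idi1 rose, between 1.34-fold and 1.44-fold, and no member fell. That is 3 of 7 members higher, beside 28.4% of all genes higher, 30.0% lower and 58.3% called in either direction. The median log2 change of the 7 was 0.26, that of all genes was 0.00, and the median size of change, regardless of sign, was 0.26 for the members and 0.37 for all genes. Both JQ1 arrays lay beyond both DMSO arrays in 6 of 7 members, above them in 5 and below in 1, and such separation was seen in 79.7% of all genes. At an unadjusted p under 0.05, 5 members were higher and 0 lower, beside 31.1% of all genes higher and 32.1% lower.

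**Figure D1:**
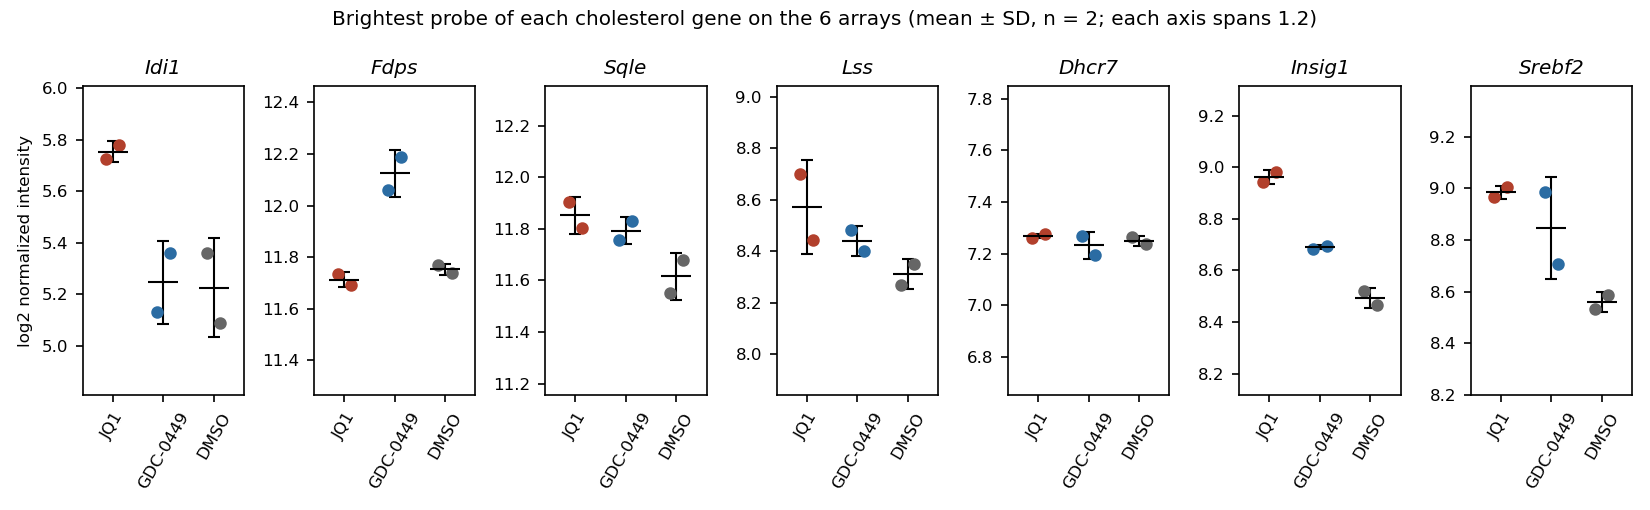
Log2 normalized intensity of the brightest probe of each of the 7 genes on every array, as points for JQ1, GDC-0449 and DMSO from left to right, with the mean and SD of 2 arrays in black. Each vertical axis spans 1.2 log2 units at its own level. Insig1 is highest with JQ1 and intermediate with GDC-0449, Fdps is high only on the GDC-0449 arrays, and Dhcr7 is level.

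Insig1 (chr5:28071412-28078662 in GRCm38.p6) had log2 intensities of 8.94 and 8.98 with JQ1, 8.69 and 8.70 with GDC-0449, and 8.52 and 8.47 with DMSO. The 3 groups did not overlap, with JQ1 highest and GDC-0449 between. The log2 change with JQ1 was 0.47 (SE 0.09, limma adjusted p = 0.00189), a 1.38-fold rise. Of its other probes, the second brightest rose as well and by more, with 8.70 and 8.69 with JQ1, 8.35 and 8.32 with GDC-0449, and 8.03 and 8.19 with DMSO (log2 change with JQ1 0.59, limma adjusted p = 0.00121 over all probes). The dimmest tested probe gave 7.64 and 7.62 with JQ1, 7.40 and 7.16 with GDC-0449, and 7.26 and 7.72 with DMSO. Its DMSO arrays lay on either side of the JQ1 arrays, and its log2 change of 0.14 was not called (adjusted p = 0.465). The remaining probe was above background on 0 of 6 arrays.

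Srebf2 (chr15:82147269-82205379 in GRCm38.p6), which encodes SREBP-2, had 8.97 and 9.004 with JQ1, 8.99 and 8.71 with GDC-0449, and 8.53 and 8.59 with DMSO. The JQ1 arrays were close together above both DMSO arrays, while the GDC-0449 arrays were spread. The log2 change with JQ1 was 0.43 (SE 0.11, limma adjusted p = 0.01002). The second probe of Srebf2 went the other way, with 7.19 and 7.27 with JQ1, 7.50 and 7.44 with GDC-0449, and 7.45 and 7.40 with DMSO. Here both JQ1 arrays lay below the other 4, and the log2 change of -0.19 was not called (limma adjusted p = 0.115). The rise of Srebf2 therefore rests on its brightest probe, and with both probes averaged it was 0.12 and not called (adjusted p = 0.290). Without the first DMSO array it was 0.40 with an adjusted p of 0.0548.

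Idi1 (chr13:8885606-8892396 in GRCm38.p6) encodes isopentenyl-diphosphate isomerase, which makes the building block that farnesyl diphosphate synthase extends. Its only probe was dim, with 5.72 and 5.78 on the JQ1 arrays, 5.13 and 5.36 on the GDC-0449 arrays, and 5.36 and 5.09 on the DMSO arrays. It was above background on 2 of 2 JQ1 arrays, 1 GDC-0449 array and 1 DMSO array. Both JQ1 arrays stood above the other 4, which overlapped. The log2 change with JQ1 was 0.53 (SE 0.12, limma adjusted p = 0.00601), the largest of the 7. With a larger offset of 50 added to the signals it was 0.30, and without background correction 0.25, both still called.

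The other enzymes were measured well above background and were not called. Sqle (chr15:59315092-59331193 in GRCm38.p6), the squalene epoxidase and a rate-limiting step of the sterol branch, had 11.90 and 11.80 with JQ1, 11.76 and 11.83 with GDC-0449, and 11.55 and 11.68 with DMSO. Its log2 change with JQ1 was 0.24 (95% interval 0.02 to 0.46, limma adjusted p = 0.0624). A second probe of Sqle gave 0.20. Sqle passed the threshold under 6 of 17 alternative settings, with both probes averaged among them.

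Lss (chr10:76531565-76557139 in GRCm38.p6), the lanosterol synthase that closes the sterol rings, had 8.70 and 8.44 with JQ1, 8.48 and 8.40 with GDC-0449, and 8.27 and 8.35 with DMSO. The JQ1 arrays were the most spread, and the log2 change was 0.26 (95% interval 0.01 to 0.51, limma adjusted p = 0.0727). Without the second JQ1 array it was 0.39 and called (adjusted p = 0.0281), and without the first it was 0.13 and not called (adjusted p = 0.402). Dhcr7 (chr7:143823167-143848410 in GRCm38.p6), which reduces 7-dehydrocholesterol to cholesterol, had 7.26 and 7.28 with JQ1, 7.27 and 7.20 with GDC-0449, and 7.26 and 7.24 with DMSO. The arrays of all 3 groups overlapped, and the interval of its log2 change with JQ1 was -0.18 to 0.22 around 0.02. Fdps (chr3:89093588-89101967 in GRCm38.p6), the farnesyl diphosphate synthase, had 11.73 and 11.69 with JQ1 and 11.77 and 11.74 with DMSO, a log2 change of -0.04 (95% interval -0.25 to 0.17, limma adjusted p = 0.731).

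**Figure D2:**
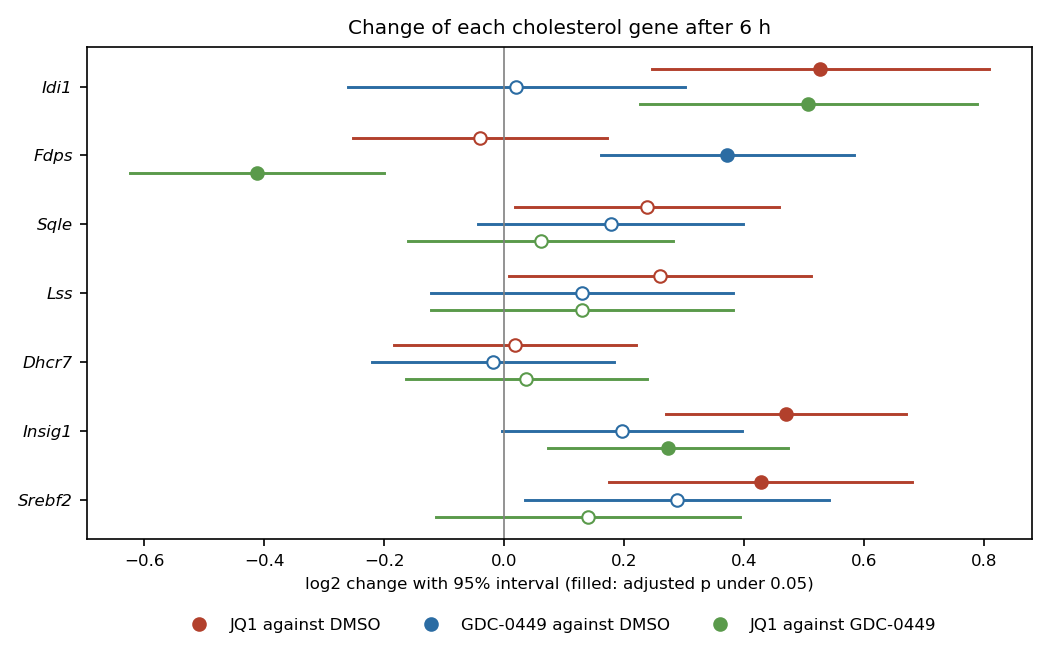
Log2 change and 95% interval of each gene (rows) for JQ1 against DMSO in red, GDC-0449 against DMSO in blue and JQ1 against GDC-0449 in green, with called changes filled. Idi1, Insig1 and Srebf2 are filled for JQ1 and Fdps for GDC-0449, with Fdps the only gene to the left of 0 in JQ1 against GDC-0449 by a called amount.

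GDC-0449 against DMSO asks how the same genes respond when Smoothened is blocked. Fdps alone was called, 1.29-fold higher. That is 1 of 7 members higher and 0 lower, beside 8.64% of all genes higher, 9.60% lower and 18.2% called in either direction. The median log2 change of the 7 was 0.18, against 0.01 for all genes, and at an unadjusted p under 0.05 2 members were higher and 0 lower, beside 17.1% of all genes higher and 16.8% lower. Both GDC-0449 arrays lay above both DMSO arrays in 5 of 7 members and below in 0, and 61.7% of all genes showed such separation in either direction.

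Fdps had 12.06 and 12.19 with GDC-0449, above the JQ1 arrays at 11.73 and 11.69 and the DMSO arrays at 11.77 and 11.74. The log2 change with GDC-0449 was 0.37 (SE 0.09, limma adjusted p = 0.0279). Its second probe had 7.76 and 7.75 with JQ1, 8.03 and 7.90 with GDC-0449, and 7.67 and 7.62 with DMSO. That probe was also highest on the GDC-0449 arrays, with a log2 change of 0.32 that was not called (limma adjusted p = 0.0579 over all probes). Leaving out any 1 GDC-0449 or DMSO array ended the call of Fdps, with changes of 0.31 to 0.44 and adjusted p-values of 0.0594 to 0.138.

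Srebf2 and Insig1 were not called with GDC-0449, at log2 changes of 0.29 (95% interval 0.03 to 0.54) and 0.20 (95% interval -0.0036 to 0.40), with limma adjusted p-values of 0.107 and 0.154. Without the first GDC-0449 array Srebf2 was at 0.15 (adjusted p = 0.453), and without the second at 0.43 (adjusted p = 0.0624). Sqle was at 0.18 and Lss at 0.13, and the intervals of both included 0. Idi1 was at 0.02 and Dhcr7 at -0.02. Both responses were measured against the same DMSO arrays, so the values of a gene in the 2 comparisons are not independent.

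**Figure D3:**
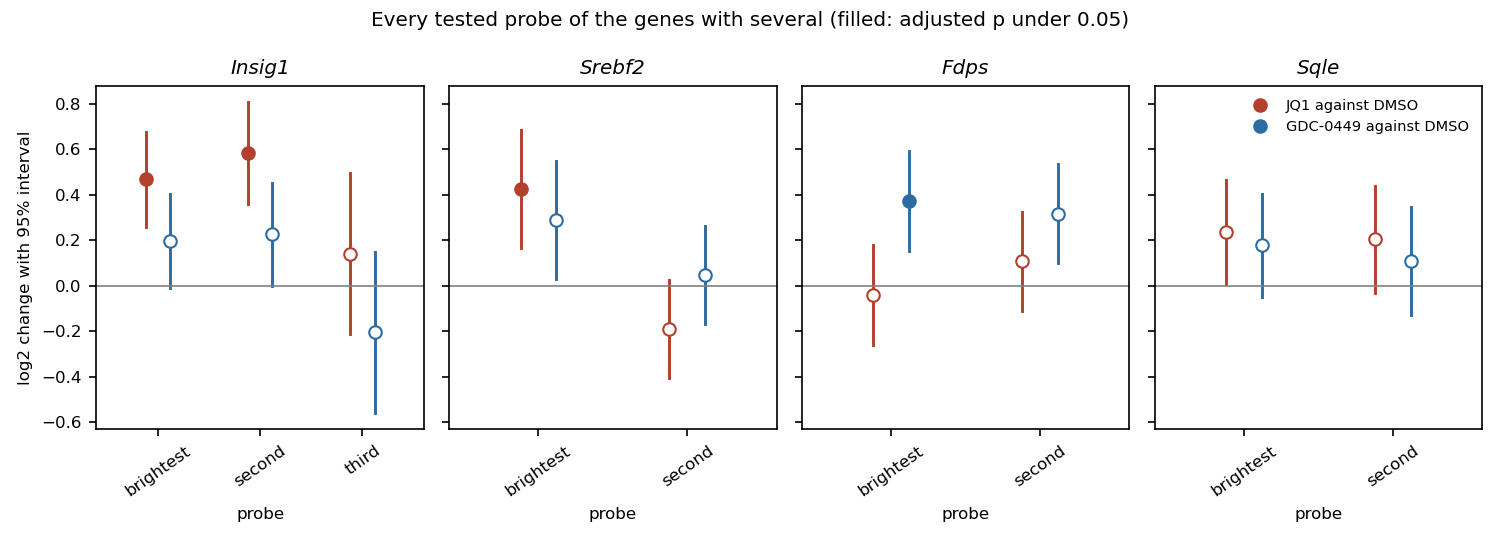
Log2 change with 95% interval of every tested probe of Insig1, Srebf2, Fdps and Sqle, from the brightest to the dimmest, for JQ1 against DMSO in red and GDC-0449 against DMSO in blue, with called changes filled. The 2 brighter Insig1 probes and both Sqle probes lie at like values, while the second Srebf2 probe lies at -0.19 with JQ1 where the first lies at 0.43.

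Over single probes, 4 of the 12 tested probes were higher with JQ1 and 0 lower, beside 56.4% of all 17026 probes called in either direction. With GDC-0449 1 of 12 was higher and 0 lower, beside 15.3% called. Probes of 1 gene share their transcript and are not replicates.

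JQ1 against GDC-0449 sets the compounds against each other without the DMSO arrays. Idi1 and Insig1 were higher with JQ1 and Fdps was lower, so 2 of 7 members were higher and 1 lower. Over all genes 26.5% were higher, 28.0% lower and 54.5% called in either direction. The difference in log2 intensity was 0.51 for Idi1 (limma adjusted p = 0.00784), 0.27 for Insig1 (0.0278) and -0.41 for Fdps (0.00536). Srebf2 differed by 0.14 (95% interval -0.11 to 0.39), Lss by 0.13 (-0.12 to 0.38), Sqle by 0.06 (-0.16 to 0.28) and Dhcr7 by 0.04 (-0.16 to 0.24). The arrays of the compounds did not overlap in 3 of 7 members, 2 above and 1 below, and in 78.0% of all genes. Of the 12 probes 3 were higher and 1 lower, beside 52.2% of all probes called. The call of Insig1 did not hold when any 1 JQ1 or GDC-0449 array was left out, with differences of 0.25 to 0.29 and adjusted p-values of 0.0749 to 0.112. That of Idi1 was 0.39 with an adjusted p of 0.0562 without the first GDC-0449 array.

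The calls of the members depended on how the arrays were scaled. With every array scaled to the median of all probes, most of which lay near background, the median of all genes moved to -0.30 for JQ1 and -0.21 for GDC-0449 against DMSO. Of the genes called, 20.8% were then higher with JQ1 and 9.92% with GDC-0449, against 48.6% and 47.4% after quantile normalization. Insig1 was then at 0.12, Srebf2 at 0.08 and Idi1 at 0.24 with JQ1, and Fdps at 0.10 with GDC-0449, none of them called, while Dhcr7 was lower with JQ1 (log2 change -0.36, limma adjusted p = 0.0284). With arrays scaled to the median of the tested probes, a choice made after seeing the data, 4 members were higher with JQ1, Sqle joining the 3 at 0.44, and Fdps was again the 1 member higher with GDC-0449 (log2 change 0.31, adjusted p = 0.0435). The median of all genes was then 0.07 with JQ1 and 0.003 with GDC-0449. Of all genes called, 44.6% and 53.2% were lower. Fdps then differed by -0.15 between JQ1 and GDC-0449 and was not called (adjusted p = 0.190).

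**Figure D4:**
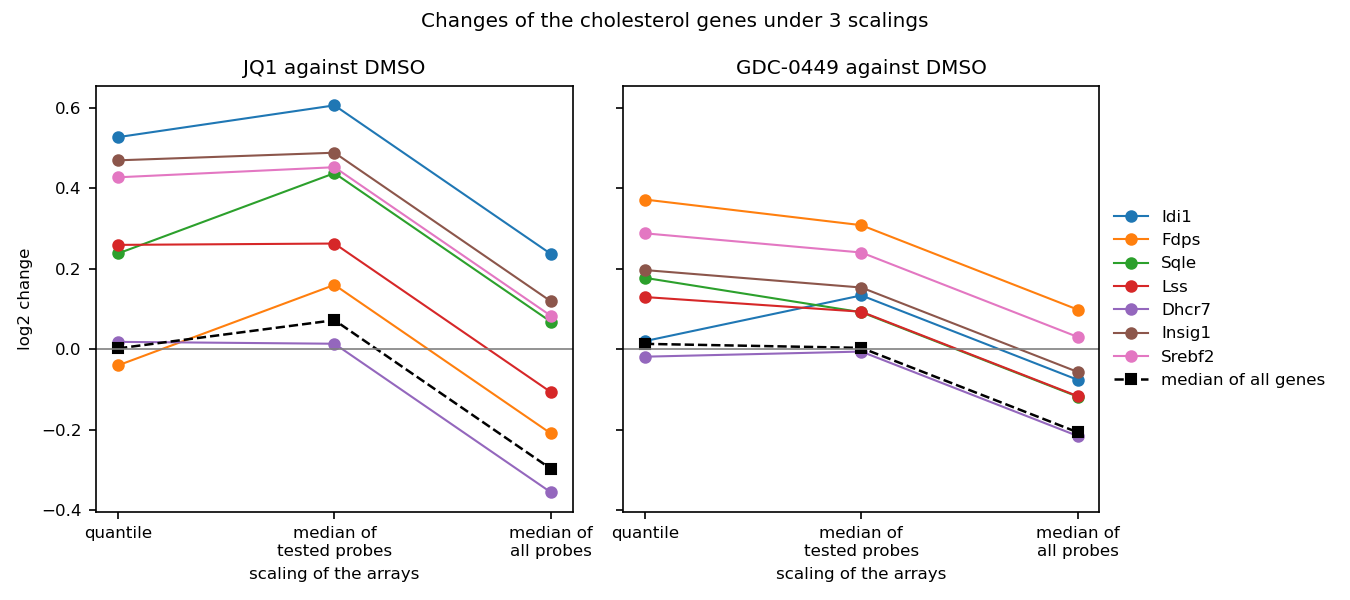
Log2 change of each of the 7 genes against DMSO (JQ1 left, GDC-0449 right) under quantile normalization, scaling to the median of the tested probes and scaling to the median of all probes; the dashed black line is the median of all genes. The genes move down together with that line under the last scaling, with all but Dhcr7 above it in the JQ1 panel there.

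The other sterol synthesis enzymes split in the same comparison. Of 18 listed, 13 were tested. With JQ1 5 rose and 1 fell, beside 28.4% of all genes higher and 30.0% lower, with a median log2 change of 0.18. Tm7sf2, a sterol reductase, had 7.27 and 6.96 with JQ1, 6.25 and 6.19 with GDC-0449, and 6.24 and 6.17 with DMSO (log2 change 0.91, limma adjusted p = 0.000235). Acat2, the acetyl-CoA acetyltransferase of the first step, rose by 0.62. Nsdhl, which acts in removal of the methyl groups, rose by 0.36 (0.36 to 0.55 over its 4 probes), and Hsd17b7, which acts beside it, by 0.41. Lbr, a lamin-binding sterol reductase, fell by 0.28 with JQ1. With GDC-0449 0 of 13 were called by limma, beside 18.2% of all genes. At an unadjusted p under 0.05 1 was higher and 3 lower, beside 17.1% and 16.8% of all genes. In JQ1 against GDC-0449 5 were higher and 0 lower, led by Tm7sf2 at 0.89 and Acat2 at 0.71. Over all genes 26.5% were higher in that comparison and 28.0% lower. With scaling to the median of all probes the JQ1 count turned to 2 higher and 4 lower, and to the median of the tested probes it was 6 higher and 0 lower. Of all genes called, 79.2% and 44.6% were lower under these scalings. The call of Nsdhl ended without the second JQ1 array (log2 change 0.30, adjusted p = 0.0616).

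Of 9 genes listed for SREBP control, all tested and Srebf1, which encodes SREBP-1, among them, 5 fell with JQ1 and 0 rose. Their median log2 change was -0.46. That share stands beside 30.0% of all genes lower, 28.4% higher and 58.3% called in either direction. Mbtps2, a protease that releases SREBP from the membrane, had 5.99 and 5.94 with JQ1, 6.39 and 6.33 with GDC-0449, and 6.53 and 6.58 with DMSO (log2 change -0.59, limma adjusted p = 0.000562). Insig2, the close relative of Insig1, fell by 0.46 with JQ1 at its brightest probe, while another of its probes was at 0.02, and with its probes averaged it was at -0.22 and not called (adjusted p = 0.0620). Rnf145, a ubiquitin ligase, fell by 0.55. Erlin1, a membrane protein that restrains SREBP, had log2 changes of -0.46 with JQ1 and -0.58 with GDC-0449, both called, and Erlin2 fell by 0.37 with JQ1. Without the first GDC-0449 array or the first DMSO array Erlin1 was not called with GDC-0449 (log2 changes -0.44 and -0.55, adjusted p = 0.0575 and 0.0683). With GDC-0449 Mbtps1, the first SREBP protease, was the 1 gene higher (log2 change 0.35, limma adjusted p = 0.0407), a call lost under 12 of 17 alternative settings. Over all genes 8.64% were higher with GDC-0449 and 9.60% lower. In JQ1 against GDC-0449 5 of the 9 were lower and 0 higher, beside 28.0% and 26.5% of all genes. Scaled to the median of all probes, 0 of the 9 were higher with JQ1 and 8 lower, where 79.2% of all genes called were lower. Scaled to the median of the tested probes, 0 were higher and 5 lower, where 44.6% of all genes called were lower.

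Among uptake and intracellular transport genes 14 of 17 were tested, and with JQ1 6 rose and 6 fell, beside 28.4% of all genes higher and 30.0% lower. Npc1, which moves cholesterol out of lysosomes, rose by 1.02, with 10.21 and 10.18 with JQ1 and 9.16 and 9.20 with DMSO (limma adjusted p = 2.61e-05). Its partner Npc2 rose by 0.81. Vldlr, a lipoprotein and reelin receptor, had log2 changes of -0.71 with JQ1 and -0.73 with GDC-0449, both called. With GDC-0449 0 genes of this list rose and 3 fell, beside 8.64% and 9.60% of all genes. The 3 were Lrp8, a reelin and apolipoprotein receptor (log2 change -1.08, and -1.08 to -0.50 over its 3 probes), Vldlr and Tmem97 (log2 change -0.37). Tmem97 was not called once any 1 GDC-0449 or DMSO array was left out (-0.33 to -0.42, adjusted p = 0.0639 to 0.124). Lrp8 went the other way with JQ1, at 0.38, and was 1.47 higher on the log2 scale in JQ1 against GDC-0449 (limma adjusted p = 7.54e-06). Scaled to the median of all probes, 2 genes of the list were higher with JQ1 and 6 lower, and scaled to the median of the tested probes 7 and 6. Of all genes called, 79.2% and 44.6% were lower under these scalings.

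Of 11 genes of efflux, esterification and oxysterols 6 were tested, and with JQ1 1 rose and 2 fell. Over all genes 28.4% were higher with JQ1 and 30.0% lower. Cyp7b1, an oxysterol hydroxylase, fell by 1.49 (limma adjusted p = 5.62e-06), with 7.82 and 7.86 with JQ1, 9.61 and 9.63 with GDC-0449, and 9.41 and 9.26 with DMSO. Cyp46a1, the neuronal cholesterol 24-hydroxylase, was the gene that rose. It passed the filter on dim probes only through the 2 JQ1 arrays, so its place in the count is fixed by that filter, and it was at least 1.33-fold higher than with DMSO. The sterol exporters Abca1 and Abcg1 were not above background on enough arrays to be tested. With GDC-0449 0 of 6 were called by limma, beside 18.2% of all genes. At an unadjusted p under 0.05 3 were higher, beside 17.1% of all genes. Of 12 fatty acid synthesis genes 8 were tested, and with JQ1 2 rose and 2 fell, beside 28.4% and 30.0% of all genes. Acss2, the acetyl-CoA synthetase, had 10.72 and 10.77 with JQ1, 8.80 and 9.02 with GDC-0449, and 8.75 and 8.60 with DMSO, a rise of 2.07 (limma adjusted p = 2.53e-06), and its second probe was at 1.21. Acly, the ATP citrate lyase that also makes acetyl-CoA, rose by 0.72, and the elongase Elovl6 fell by 0.91. With GDC-0449 0 of 8 were called, beside 18.2% of all genes. At an unadjusted p under 0.05 1 was lower, beside 16.8% of all genes.

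**Figure D5:**
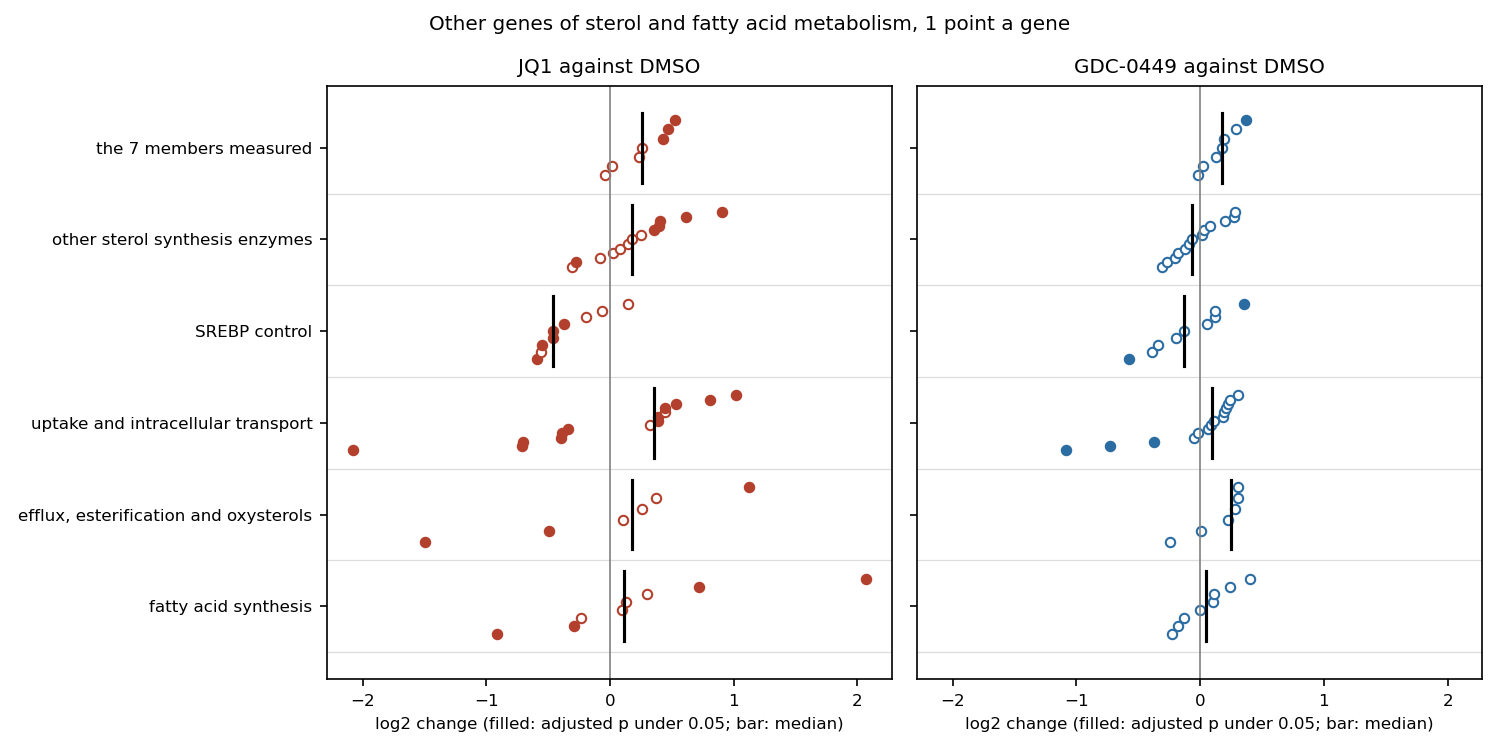
Log2 change of each tested gene (1 point a gene, filled where called) in the 7 members and in 5 lists of related genes, for JQ1 against DMSO on the left and GDC-0449 against DMSO on the right, with a bar at each median. The SREBP control genes lie mostly left of 0 with JQ1, and the uptake genes split to both sides.

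The mean profile of the 7 members, centred over the 6 arrays, was 0.14 and 0.11 with JQ1, 0.02 and 0.02 with GDC-0449, and -0.14 and -0.15 with DMSO. Sqle lay closest to it, with a root mean square difference of 0.05, and Fdps farthest at 0.22. The genes nearest to it outside the set were Rab7 (0.016), Slc39a3 (0.018), Csnk1e (0.019), Ccnt1 (0.020) and Zhx1 (0.022), over 6 arrays of 3 groups.

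A probe that the table annotates as a predicted transcript similar to the Hmgcs1 protein, LOC100040592, was noticed after seeing the data. It had 12.62 and 12.68 with JQ1, 12.69 and 12.78 with GDC-0449, and 12.53 and 12.40 with DMSO, and was not called in any comparison (log2 changes 0.18, 0.27 and -0.09). Probe sequences were not used here, so these values were not assigned to Hmgcs1.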

How the data were processed

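The deposited table gives a mean bead intensity per probe on a linear scale, named as not normalized, and an unadjusted detection p-value, per the file headers. The submitters' processing notes name GenomeStudio 1.9.0. Background was corrected from the detection p-values, an offset of 16 was added, and arrays were quantile normalized (neqc, limma 3.58.1, R 4.3.3). Values are log2 normalized intensities. A probe was tested when 2 or more of the 6 arrays gave it a detection p under 0.01, which left 17026, and a gene was its brightest tested probe. For 6111 probes an older symbol was replaced through the GRCm38.p6 RefSeq table, 27740 were current and 11430 were kept.

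A mean per group was fitted to all 6 arrays (lmFit, eBayes, 3 residual and 5.38 prior degrees of freedom). Tests were two-sided, adjusted by Benjamini-Hochberg over all genes (for single probes, over all probes), at a threshold of 0.05. The model was tested on simulated data. SE is from the model, SD is over 2 arrays, and the number of arrays limits the precision. A fold against a group without a detected array is a bound at the lowest detected signal of each array.

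The members, lists and rule for named genes (all members, the 4 genes of each list with the smallest p, Ptch1, Hhip and Hexim1 as checks, and the 5 nearest profiles) were chosen with earlier results of these data known. A few listed genes are not reported here by name and still count in the totals. Hhip had log2 changes of -1.55 with JQ1 and -1.94 with GDC-0449, both called.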

Additional observations from a re-analysis of the deposited data

How the results depend on the processing

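Of 1184 values of 70 single-gene results under the alternatives, 1080 kept direction and side of the threshold, 47 lost the threshold, 36 gained it and 21 changed direction. With JQ1 against DMSO, 5 of 7 members were called without background correction and with an offset of 50. Beside them stood 7406 and 7361 of all 12052 genes. With scaling to the median of all probes 1 member and 7199 genes were called, against 3 members and 7029 genes in the main fit. With GDC-0449 against DMSO, 2 members were called without background correction and 0 with scaling to the median of all probes. All genes called were 2943 without background correction, 3588 under that scaling and 1374 with no filter on dim probes, against 2198. In JQ1 against GDC-0449 0 members were called under that scaling. The main fit called 58.3% of all genes for JQ1 against DMSO, 18.2% for GDC-0449 against DMSO and 54.5% between the compounds. Leaving out 1 array gave 2 to 4 members called for JQ1 against DMSO, 0 to 1 for GDC-0449 against DMSO (all genes 683 to 2103) and 1 to 3 for JQ1 against GDC-0449.

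Under scaling to the median of all probes the log2 change turned to -0.11 for Lss and -0.36 for Dhcr7 with JQ1. With GDC-0449 it turned to -0.056 for Insig1, -0.12 for Sqle, -0.076 for Idi1, -0.12 for Lss, -0.033 for Acss2, -0.0063 for Cyp7b1, -0.076 for Hexim1, -0.0066 for Nsdhl and -0.0039 for Stard3. In JQ1 against GDC-0449 it turned to -0.14 for Dhcr7 and -0.066 for Ptch1. With probes averaged, Fdps was at 0.034 with JQ1, Stard3 at -0.0093 with GDC-0449 and Srebf2 at -0.050 in JQ1 against GDC-0449. With scaling to the median of the tested probes Fdps was at 0.16 with JQ1. Leaving out 1 array gave log2 changes with GDC-0449 of -0.12 to 0.16 for Idi1, turned without the second GDC-0449 array (-0.094) or the second DMSO array (-0.12), and of -0.055 to 0.018 for Dhcr7, turned without the second GDC-0449 array. It gave -0.025 to 0.29 for Ptch1 in JQ1 against GDC-0449, turned without the same array. The cause of these turns was not tested.

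Same-numbered arrays did not deviate together across genes (correlations of deviations 0.081, 0.0066 and -0.016). With 2 arrays a group these values cannot tell whether such arrays shared a culture, day or chip. With the replicate number as a block 7028 genes and 3 members were called for JQ1 and 2068 genes and 1 member for GDC-0449 against DMSO, and 6566 genes and 3 members between the compounds. The deposited processed values gave 4, 1 and 3 members called; these rank genes like the table used here (Spearman 0.987 to 0.989), hold values below 0 and have a median of 8.15 in every column, but how they were centred is not given in the sources used here. Signal over background limits Idi1, above background on 4 of 6 arrays and thus without a value when all 6 were required. A group left with 1 array was assumed to vary like the others. Fits to the 2 groups compared alone gave 3, 1 and 3 members. These member counts and those of the deposited values stand beside 58.3%, 18.2% and 54.5% of all genes called in the main fit.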
